A study of Mus musculus with 12 samples.

Results

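The genes described here are 10 subunits and antagonists of the Polycomb system: Ezh1, Ezh2, Eed, Suz12 and Jarid2 of Polycomb repressive complex PRC2, Bmi1, Ring1 and Rnf2 of complex PRC1, and the demethylases Kdm6a and Kdm6b. The rule takes them by gene name alone, and the set was proposed with earlier results of these data known. All 10 were among the 25117 gene symbols of the deposited table, and all 10 were among the 12653 that were tested, those with at least 1 TPM in at least 3 libraries. TPM (transcript abundance scaled to a fixed library total) is relative within a library and corrected for transcript length. The 12 libraries hold polyadenylated RNA from mouse embryonic fibroblasts (MEFs), connective tissue cells grown from embryos. Every library came from cells with Rbbp5 (flox/flox) alleles and Rosa26 CRE (+/+), a Cre recombinase in a locus that is active in most cell types. The enzymes that methylate lysine 4 of histone H3 (SET1 and MLL complexes, together COMPASS) all need RBBP5 as a core subunit. The groups, of 3 libraries each, were wildtype in full medium (no tamoxifen, then full DMEM medium with serum), KO in full medium (tamoxifen for 7 days, then the same medium), labelled wildtype in EBSS (no tamoxifen, then EBSS) and labelled KO in EBSS (tamoxifen for 7 days, then EBSS). The full medium or EBSS step lasted 16 hours, and EBSS (Earle's balanced salt solution) is a buffer without amino acids or serum that starves cells. No group had tamoxifen without the floxed alleles, so tamoxifen, Cre and loss of RBBP5 cannot be told apart.

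PRC2 places methyl groups on lysine 27 of histone H3 (H3K27), a mark of silenced developmental genes. EZH2 or its weaker paralog EZH1 is the catalytic subunit, and EED and SUZ12 hold the complex together. PRC1 binds that mark or DNA-bound partners and ubiquitinates histone H2A through the ligases RING1 and RNF2, while KDM6A (UTX) and KDM6B (JMJD3) remove methyl groups from H3K27. In fibroblasts the system is best known for silencing Cdkn2a, a locus of cell cycle inhibitors that accumulate in senescence. Polycomb silencing and the H3K4 methylation that RBBP5 serves are classically antagonistic.

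Both EBSS groups are named by their labels, because of Rbbp5. It was at 25.7 to 26.2 TPM in wildtype and 7.47 to 9.34 TPM in KO in full medium, but at 11.8 to 14.0 TPM in labelled wildtype and 23.0 to 31.9 TPM in labelled KO in EBSS. With median-of-ratios scaling, which sets libraries to a like level at their middle genes, it was at 20.9 to 21.2 in wildtype and 7.31 to 8.34 in KO in full medium, 18.5 to 22.4 in labelled wildtype and 19.7 to 25.3 in labelled KO in EBSS. Labelled KO, EBSS thus went against its label on both scales, and labelled wildtype, EBSS as deposited only. Between the EBSS groups Rbbp5 was 0.99 higher in labelled KO on the log2 scale as deposited (limma adjusted p = 3.21e-05) and 0.08 after median-of-ratios scaling (adjusted p = 0.558). The labelled wildtype, EBSS libraries were unlike the other libraries: 31.2% to 33.6% of all TPM in them came from cytosolic ribosomal protein genes, which made up 14.4% to 18.1% in the other 9. The deposited columns did not share one total: they summed to 923097 to 941267 TPM in labelled wildtype, EBSS and 983769 to 993651 TPM in the other 9. The ribosomal RNA precursor Rn45s was at 1454 to 2105 TPM in the labelled wildtype, EBSS libraries against 68.3 to 272 TPM in the other 9. Rpph1 and Rmrp, RNAs of RNase P and RNase MRP, were at 808.8 TPM or more there and at most at 10.9 and 20.0 TPM elsewhere. The part of these RNAs in the members' values was not tested. Within that group replicate 3 listed 1122 tested genes at 0, against at most 229 in each of the other libraries, and correlated at 0.942 and 0.941 with replicates 1 and 2 in log values across genes, which correlated at 0.990 with each other. In labelled KO, EBSS replicate 1 was the farthest from its group, at 0.973 and 0.972. Of the fibroblast markers, Vim was at 1973 TPM or more and collagen Col1a1 at 171 TPM or more in all libraries, but others were near 0 in some groups. Dcn was at 156 to 157 TPM in wildtype and 21.9 to 25.2 TPM in KO in full medium, 0.299 to 1.97 TPM in labelled wildtype and 122 to 158 TPM in labelled KO in EBSS. Pdgfra was at 0.224 to 0.263 TPM in KO in full medium, and in labelled wildtype, EBSS Lum was listed at 0 in 2 libraries and Thy1 in 1. The 12 fibroblast markers summed to 7423 to 7474 TPM in wildtype and 4487 to 5195 TPM in KO in full medium, 3286 to 3673 TPM in labelled wildtype and 5611 to 7551 TPM in labelled KO in EBSS. Their part in the values below was not tested. Of the markers that define other cell types, Ptprc (leukocytes), Epcam and Cdh1 (epithelium) and Cdh5 (endothelium) were below 1 TPM in all 12 libraries. The 6 macrophage markers summed to 28.6 to 29.7 TPM in wildtype and 63.8 to 68.7 TPM in KO in full medium, and to 21.7 to 83.8 TPM in labelled wildtype and 29.7 to 33.3 TPM in labelled KO in EBSS. Cd68 made up most of the KO sum, at 56.4 to 61.95 TPM. Cd14 went the other way, at 11.3 to 12.7 TPM in wildtype and 3.18 to 3.67 TPM in KO in full medium. The top of the range was replicate 3 of labelled wildtype, EBSS, with Lyz2 at 48.4 TPM, Adgre1 at 3.38 TPM and Csf1r at 2.84 TPM. That library also had the most Pecam1, at 4.48 TPM, and the 6 endothelial markers summed to 3.49 to 3.81 and 8.15 to 9.05 TPM in wildtype and KO in full medium, and to 3.48 to 10.6 and 3.29 to 5.12 TPM in the EBSS groups in the same order. Vwf was at 0.172 to 0.239 TPM in wildtype and 7.04 to 8.15 TPM in KO in full medium. Kdr went the other way, at 2.80 to 3.13 TPM in wildtype and 0.407 to 0.484 TPM in KO. The 6 epithelial markers, mostly Krt19, summed to 159.5 to 173.9, 248.3 to 283.6, 213.5 to 229.8 and 100.3 to 145.7 TPM in the same 4 groups. The part of other cells in the members' values was not tested. In bulk RNA, fewer cells of a type and less RNA per cell cannot be told apart.

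All members were expressed, over a wide range of levels. In wildtype cells in full medium Ezh2 (66.8 ± 2.30 TPM, mean ± SD, n = 3 here and below) and Suz12 (65.9 ± 2.46 TPM) led and overlapped each other. Bmi1 (47.0 ± 2.15 TPM), Eed (43.2 ± 0.788 TPM) and Rnf2 (35.6 ± 1.55 TPM) followed, each without overlap with its neighbour in the order. Ring1 and Kdm6b, both at 16.2 TPM, overlapped, and Kdm6a (14.1 ± 0.219 TPM), Ezh1 (6.90 ± 0.0190 TPM) and Jarid2 (3.07 ± 0.135 TPM) were lowest. KO cells in full medium kept Ezh2 at the top and Jarid2 at the bottom, as did labelled KO in EBSS. In labelled wildtype, EBSS the order was another: Eed (46.9 ± 7.42 TPM), Ezh2 (38.0 ± 4.53 TPM) and Kdm6b (33.6 ± 2.93 TPM) came first with each overlapping the next, and Suz12, at 22.7 ± 2.45 TPM, lay in 5th place.

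**Figure D1:**
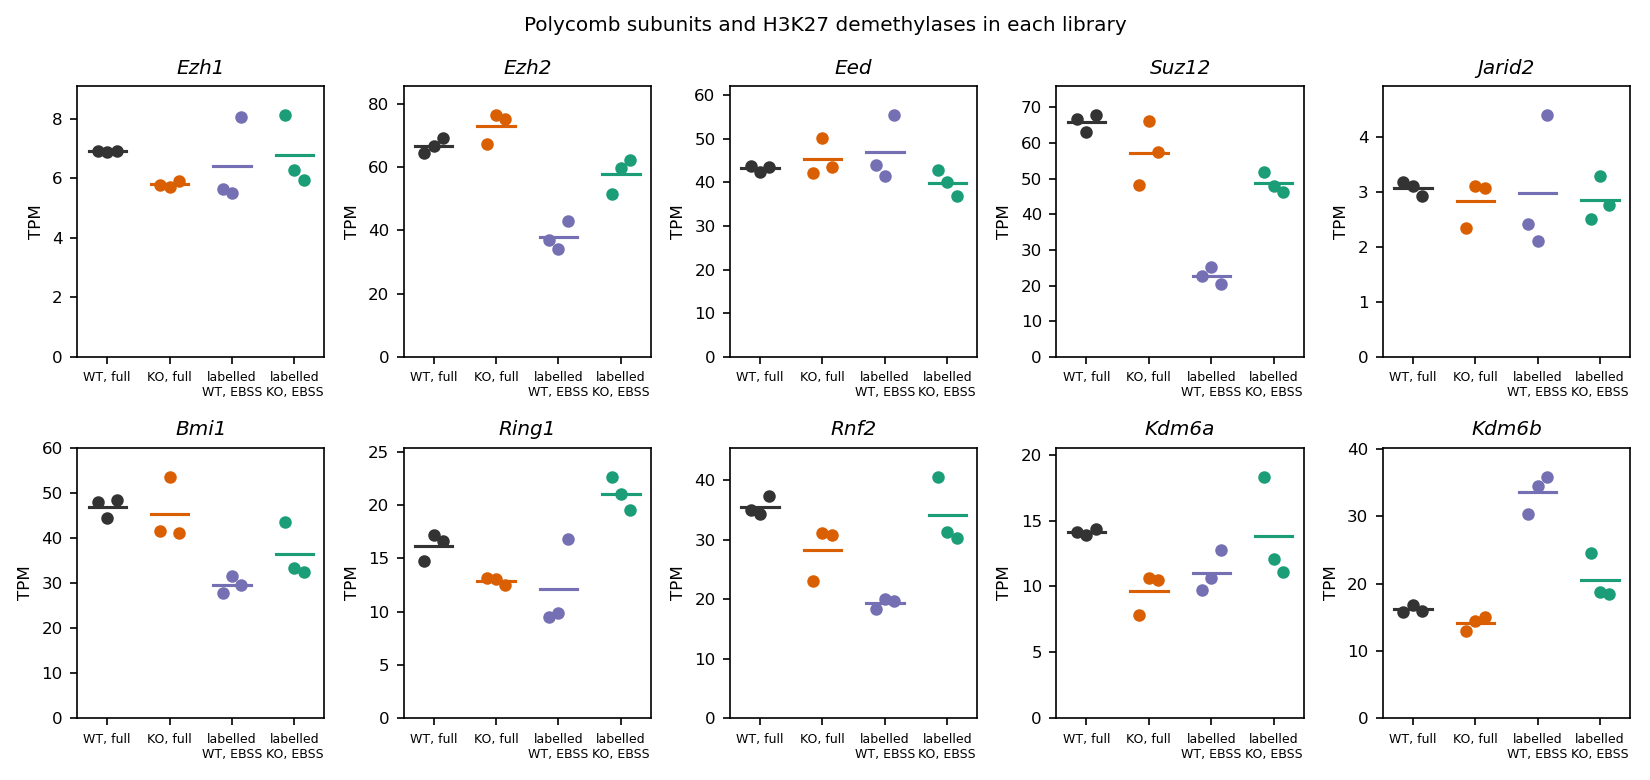
TPM (vertical axis, from 0) of each of the 10 members in the 12 libraries, by group. Points are libraries and lines are means of 3 libraries. In the labelled wildtype, EBSS libraries Suz12 lies at 20.3 to 25.2 TPM and Kdm6b at 30.3 to 35.9 TPM, outside the range of the other 9 libraries for both genes.

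KO cells in full medium differed little from wildtype in these genes. Log2 changes of TPM + 1 in the 10 members ran from -0.52 to 0.12, with a median size of 0.20 against 0.49 over all tested genes. Kdm6a alone passed the threshold (limma, Benjamini-Hochberg adjusted p under 0.05), and it was lower, so 1 of 10 members was called where 55.9% of all tested genes were (20.1% higher and 35.8% lower). That count depended on the fit, which shares one spread over all 12 libraries. With the 6 full medium libraries alone 4 were lower (Ezh1, Ring1, Rnf2 and Kdm6a), and with a replicate block 0. Genes called in all also moved, from 5406 to 9692 over the alternatives. The 3 KO libraries lay below the 3 wildtype libraries without overlap in 5 members (Ezh1, Ring1, Rnf2, Kdm6a and Kdm6b) and above them in 0, while 80.2% of tested genes did not overlap (30.5% higher and 49.7% lower). Of the 12 fibroblast markers, 10 were lower in the same comparison on both scales. The median of all tested genes moved by -0.17 in this comparison. With median-of-ratios scaling that median was 0.01, the members ran from -0.34 to 0.31, and the call was Ezh2, higher, instead of Kdm6a, where 53.7% of tested genes were called.

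Labelled wildtype, EBSS against wildtype, full medium showed more. As deposited, Ezh2, Suz12, Bmi1, Ring1 and Rnf2 were called lower and Kdm6b higher, 6 of 10 members against 81.1% of tested genes. Most genes moved down in this comparison: 71.8% of tested genes were called lower and 9.25% higher, and their median was -0.94. The libraries of the groups did not overlap for 6 members (Ezh2, Suz12, Bmi1, Rnf2 and Kdm6a lower, Kdm6b higher), against 84.1% of tested genes. After median-of-ratios scaling (median of all genes -0.10) the members split the other way, with Ezh1, Eed, Jarid2, Bmi1, Ring1, Kdm6a and Kdm6b called higher and Suz12 lower, 8 of 10 against 66.1%. The share of calls that were higher went from 11.4% to 45.9% over all genes. Suz12 and Kdm6b were thus the members whose call and direction were the same on both scales.

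Against KO in full medium, labelled KO in EBSS had Ring1 and Kdm6b higher and Ezh2 lower, 3 of 10 members against 54.2% of tested genes (33.3% higher and 20.9% lower). Ezh1, Ezh2, Ring1, Kdm6a and Kdm6b did not overlap between these groups, 5 of 10 against 67.9%. All 3 were also called, in the same directions, with median-of-ratios scaling, which added Eed, Suz12 and Bmi1 as lower (6 of 10 against 52.2%) and moved the share of calls that were higher from 61.5% to 49.8%. Rbbp5 was also higher in labelled KO, EBSS here, by 1.54 as deposited and 1.39 with median-of-ratios scaling (limma adjusted p = 3.5e-06 and 3.7e-06). Medium and Rbbp5 level thus cannot be told apart in this comparison. Between the EBSS groups (labelled KO against labelled wildtype), Ezh2, Suz12, Ring1 and Rnf2 were called higher and Kdm6b lower as deposited, 5 of 10 against 80.5% (71.9% higher and 8.58% lower), but with median-of-ratios scaling 0 were higher and 7 lower, against 63.8% called. The share of all calls that were higher fell from 89.3% to 54.6% between these scales. Comparisons that have a group in common share its 3 libraries, so their values are not independent.

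Pairs of groups that differ in label and medium are given because of the Rbbp5 levels. Labelled KO, EBSS against wildtype, full medium had 0 of 10 members called, where 0.134% of tested genes were (17 genes, 0.0869% higher and 0.0474% lower), and 0 also with median-of-ratios scaling, where 0.111% were. The libraries did not overlap for 5 members (Ezh2, Suz12 and Bmi1 lower, Ring1 and Kdm6b higher), against 38.4% of tested genes. The largest log2 changes of members there were Suz12 at -0.43, Bmi1 at -0.37, Ring1 at 0.36 and Kdm6b at 0.32. Their limma adjusted p values were 0.211, 0.340, 0.489 and 0.381. Labelled wildtype, EBSS against KO, full medium had Kdm6b higher and Ezh2, Suz12, Bmi1 and Rnf2 lower, 5 of 10 against 75.1% (11.6% higher and 63.5% lower). With median-of-ratios scaling 7 were higher there and Suz12 alone was lower, against 63.1% called.

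**Figure D2:**
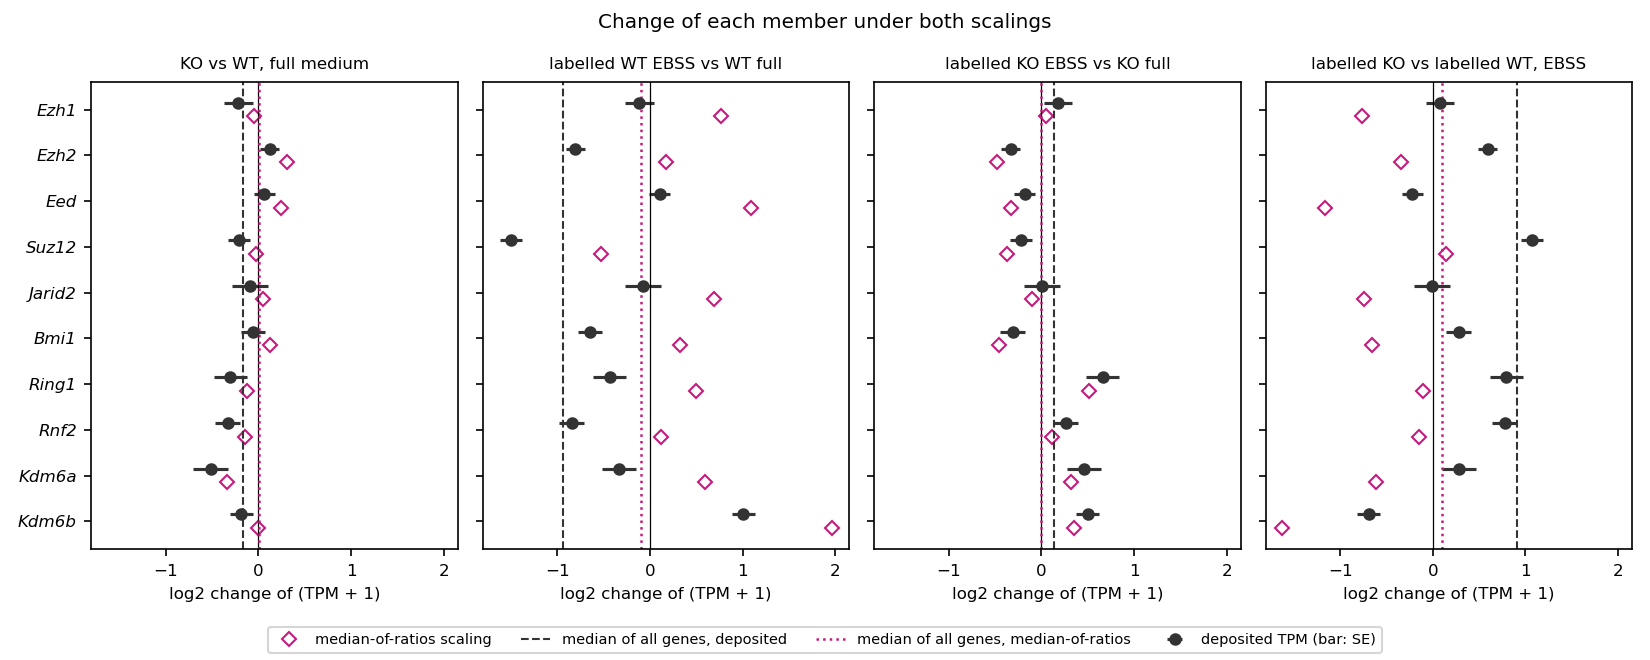
Log2 change of TPM + 1 (horizontal axis) of each member in 4 comparisons. Filled points are the deposited scale with standard errors, open diamonds the median-of-ratios scale, and vertical lines the median of all 12653 tested genes on each. Both symbols lie left of 0 for Suz12 (-1.502 and -0.53) and right of 0 for Kdm6b (1.01 and 1.97) and Eed (0.11 and 1.09) in labelled wildtype EBSS against wildtype full medium. Those of Ezh1, Ezh2, Jarid2, Bmi1, Ring1, Rnf2 and Kdm6a fall on opposite sides there.

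Within the PRC2 core, Suz12 had the largest change in labelled wildtype, EBSS against wildtype, full medium as deposited, and Eed (1.09, against -0.53 for Suz12) with median-of-ratios scaling. The start regions of the core genes Ezh2, Suz12 and Eed are shown because these partners in a complex moved unequally. They are RefSeq sequences on GRCm38.p6, from 250 bases before to 50 after the start, on the gene's strand, in lower case. Ezh2 lies at chr6:47594981-47595280 (minus strand), Suz12 at chr11:79992856-79993155 (plus strand) and Eed at chr7:89980927-89981226 (minus strand). Capitals mark exact matches to the E2F letters TTTCCCGC or TTTGGCGC.
Ezh2: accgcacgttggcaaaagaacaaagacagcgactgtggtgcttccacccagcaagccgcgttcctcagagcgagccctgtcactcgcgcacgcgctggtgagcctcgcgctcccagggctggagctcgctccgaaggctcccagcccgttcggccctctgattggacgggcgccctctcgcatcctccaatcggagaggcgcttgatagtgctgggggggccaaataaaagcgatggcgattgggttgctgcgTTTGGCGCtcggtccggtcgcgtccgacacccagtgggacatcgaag
Suz12: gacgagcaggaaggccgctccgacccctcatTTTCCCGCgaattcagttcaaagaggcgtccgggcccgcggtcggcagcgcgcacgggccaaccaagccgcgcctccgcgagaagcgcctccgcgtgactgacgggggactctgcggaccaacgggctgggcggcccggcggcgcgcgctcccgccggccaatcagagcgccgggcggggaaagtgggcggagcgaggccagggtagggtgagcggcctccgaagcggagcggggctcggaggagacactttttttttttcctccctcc
Eed: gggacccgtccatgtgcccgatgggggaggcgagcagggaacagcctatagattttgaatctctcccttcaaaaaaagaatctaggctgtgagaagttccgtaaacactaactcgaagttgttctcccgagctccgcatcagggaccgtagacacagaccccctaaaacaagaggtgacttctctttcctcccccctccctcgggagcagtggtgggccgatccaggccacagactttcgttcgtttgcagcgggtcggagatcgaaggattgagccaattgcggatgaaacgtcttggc
The match in Suz12 begins 219 bases before the start and that in Ezh2 at position 4 after it. Of 32851 mouse start regions of the same length, 1.07% hold TTTCCCGC and 0.514% hold TTTGGCGC on one strand or the other. No match to either, or to CCGGAAGT (ETS, 3.89% of regions) or TGACGTCA (CRE, 1.79%), was found in the Eed window, and the 9 members with a sequence had no other match. GC content was 64.3% in Ezh2, 71.0% in Suz12 and 54.7% in Eed, against a median of 52.7% over all regions. Kdm6b had no entry. The part of these matches in the members' values was not tested.

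Suz12 (chromosome 11, 79993106 to 80034123 on GRCm38) encodes the scaffold of PRC2. It was at 66.8, 63.1 and 67.8 TPM in wildtype and 48.1, 66.1 and 57.6 TPM in KO in full medium, and at 22.6, 25.2 and 20.3 TPM in labelled wildtype and 51.7, 47.9 and 46.3 TPM in labelled KO in EBSS. All 3 labelled wildtype, EBSS libraries were far below the rest, while KO and wildtype in full medium overlapped. Its level fell by 1.502 on the log2 scale in labelled wildtype, EBSS against wildtype, full medium (SE 0.12, limma adjusted p = 4.31e-07), 0.353 of the wildtype level in TPM + 1, and by 0.53 with median-of-ratios scaling (adjusted p = 0.000907). It was called lower in all 23 alternatives run, at -1.58 to -0.53. Relative to all genes it was no extreme: 26.3% of tested genes had a lower value. In full medium, KO against wildtype gave -0.21 (SE 0.12, adjusted p = 0.149).

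Ezh2 (chromosome 6, 47530139 to 47595341) encodes the main H3K27 methyltransferase of dividing cells. It was at 64.5, 66.6 and 69.1 TPM in wildtype and 67.2, 76.4 and 75.1 TPM in KO in full medium, and at 37.0, 34.0 and 42.9 TPM in labelled wildtype and 51.5, 59.8 and 62.1 TPM in labelled KO in EBSS. Labelled wildtype, EBSS lay below every other library and labelled KO, EBSS below both full medium groups. The change in labelled wildtype, EBSS against wildtype, full medium was -0.80 as deposited (SE 0.10, limma adjusted p = 2.20e-05), -0.48 with ribosomal protein genes left out (adjusted p = 0.00107) and 0.18 after median-of-ratios scaling (adjusted p = 0.155), so its direction depended on the scale. In labelled KO, EBSS against KO, full medium Ezh2 was lower on both scales, by -0.33 (SE 0.10, adjusted p = 0.0184) and -0.48 (adjusted p = 0.00276). That call as deposited did not pass without KO replicate 2 (0.0635) or 3 (0.0594) or labelled KO, EBSS replicate 1 (0.0537). KO against wildtype in full medium gave 0.12 (adjusted p = 0.333), and 0.31 after median-of-ratios scaling (adjusted p = 0.0273).

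Eed (chromosome 7, 89954654 to 89980983) encodes the subunit that reads trimethylated H3K27 and stimulates the complex. Its values were 43.8, 42.3 and 43.4 TPM in wildtype and 42.1, 50.2 and 43.5 TPM in KO in full medium, and 44.0, 41.5 and 55.4 TPM in labelled wildtype and 42.8, 40.0 and 36.7 TPM in labelled KO in EBSS. All 4 groups overlapped, and replicate 3 of labelled wildtype, EBSS was the highest library. As deposited, Eed passed in 0 of the 6 comparisons of groups, with labelled wildtype, EBSS against wildtype, full medium at 0.11 (SE 0.11, limma adjusted p = 0.400). With median-of-ratios scaling the same comparison gave 1.09 (adjusted p = 3.10e-06). Even as deposited, 85.7% of tested genes had a lower value there than Eed.

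Ezh1 and Jarid2, the low members of PRC2, passed in 0 comparisons as deposited. Ezh1 (chromosome 11, 101191115 to 101226463), the paralog of Ezh2 typical of resting cells, was at 6.92, 6.89 and 6.90 TPM in wildtype and 5.79, 5.72 and 5.89 TPM in KO in full medium. The 3 KO libraries were all below wildtype and the spread was small, but the fit shares one spread over all 12 libraries, and gave -0.22 (SE 0.15, limma adjusted p = 0.252). In EBSS it was at 5.64, 5.49 and 8.06 TPM in labelled wildtype and 8.12, 6.26 and 5.93 TPM in labelled KO, where replicate 3 of the former and replicate 1 of the latter stood above the rest. With the 6 libraries of the comparison alone, or without those EBSS libraries, the full medium change of -0.22 did pass; it was 0.22 with quantile normalization. Jarid2 (chromosome 13, 44729474 to 44921643), an accessory subunit that helps bring PRC2 to its targets, was at 3.18, 3.10 and 2.92 TPM in wildtype and 2.33, 3.09 and 3.06 TPM in KO. In EBSS it was at 2.42, 2.11 and 4.39 TPM in labelled wildtype and 2.49, 3.28 and 2.75 TPM in labelled KO. The groups overlapped, and the same replicate 3 was highest of all 12.

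The PRC1 members were the ligases Rnf2 and Ring1 and their partner Bmi1. Rnf2 (chromosome 1, 151458004 to 151500955), the main H2A ubiquitin ligase, was at 34.97, 34.4 and 37.3 TPM in wildtype and 23.1, 31.1 and 30.7 TPM in KO in full medium, and at 18.3, 20.0 and 19.7 TPM in labelled wildtype and 40.6, 31.4 and 30.3 TPM in labelled KO in EBSS. Every labelled wildtype, EBSS library was below the rest. Its change against wildtype, full medium was -0.85 as deposited (SE 0.14, limma adjusted p = 0.000131) and 0.12 after median-of-ratios scaling (adjusted p = 0.340). KO against wildtype in full medium, at -0.33 (SE 0.14, adjusted p = 0.0581), was close to the threshold without passing it.

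Bmi1 (chromosome 2, 18677018 to 18686629), a partner of the ligases known for holding Cdkn2a silent, was at 47.9, 44.5 and 48.5 TPM in wildtype and 41.5, 53.6 and 41.0 TPM in KO in full medium. In EBSS it was at 27.7, 31.6 and 29.6 TPM in labelled wildtype and 43.6, 33.3 and 32.5 TPM in labelled KO. The full medium groups overlapped and the labelled wildtype, EBSS libraries were below all others. Against wildtype, full medium they gave -0.65 as deposited (SE 0.13, limma adjusted p = 0.000781), but 0.33 with median-of-ratios scaling (adjusted p = 0.0231), so Bmi1 passed in opposite directions.

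Ring1 (chromosome 17, 34020792 to 34024680), the paralog of Rnf2, was at 14.8, 17.1 and 16.7 TPM in wildtype and 13.1, 13.0 and 12.5 TPM in KO in full medium, and at 9.54, 9.91 and 16.8 TPM in labelled wildtype and 22.7, 21.0 and 19.5 TPM in labelled KO in EBSS. The labelled KO, EBSS libraries were the highest of all. Against KO, full medium they rose by 0.66 (SE 0.18, limma adjusted p = 0.00814), and by 0.52 with median-of-ratios scaling (adjusted p = 0.0234). Against wildtype, full medium the difference was 0.36 and did not pass (limma adjusted p = 0.489). The lower value in labelled wildtype, EBSS against wildtype, full medium, -0.43 (adjusted p = 0.0403), rested on replicates 1 and 2, since replicate 3 lay among the wildtype values. It did not pass in 13 of 23 alternatives and became higher in 2 more, at 0.50 with median-of-ratios scaling and 0.63 with quantile normalization.

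Of the H3K27 demethylases, Kdm6b (chromosome 11, 69398508 to 69413675), an inducible enzyme known from stress and inflammatory responses, was at 15.7, 16.9 and 15.9 TPM in wildtype and 12.9, 14.4 and 15.1 TPM in KO in full medium, and at 30.3, 34.5 and 35.9 TPM in labelled wildtype and 24.5, 18.7 and 18.4 TPM in labelled KO in EBSS. Both EBSS groups were above both full medium groups without overlap, labelled wildtype most. It rose in labelled wildtype, EBSS against wildtype, full medium by 1.01 (SE 0.12, limma adjusted p = 1.54e-05), 2.01-fold in TPM + 1, and by 1.97 with median-of-ratios scaling (adjusted p = 4.73e-08), and it was called higher in all 23 alternatives run, at 0.96 to 1.97. In this comparison 96.0% of tested genes had a lower value. In labelled KO, EBSS against KO, full medium it rose by 0.50 (SE 0.12, adjusted p = 0.00540), and by 0.36 with median-of-ratios scaling (adjusted p = 0.00981). Against wildtype, full medium the same libraries were 0.32 higher, which did not pass (limma adjusted p = 0.381). Between the EBSS groups the labelled KO libraries were lower on both scales, at -0.69 (adjusted p = 0.000312) and -1.62 (adjusted p = 1.87e-07).

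Kdm6a (chromosome X, 18162575 to 18279936) is also a subunit of the KMT2C and KMT2D complexes, which contain RBBP5. It was at 14.2, 13.9 and 14.3 TPM in wildtype and 7.81, 10.7 and 10.5 TPM in KO in full medium, and at 9.70, 10.7 and 12.7 TPM in labelled wildtype and 18.3, 12.1 and 11.1 TPM in labelled KO in EBSS. The KO libraries lay below wildtype, replicate 1 most. KO cells fell by 0.52 (SE 0.18, limma adjusted p = 0.0322), 0.699 of the wildtype level in TPM + 1. This call did not hold with median-of-ratios scaling (-0.34, adjusted p = 0.0839), without KO replicate 1 (adjusted p = 0.125) or without wildtype replicate 1, 2 or 3 (0.0766, 0.0706 and 0.0814). In labelled wildtype, EBSS against wildtype, full medium the value was -0.34 as deposited (adjusted p = 0.109) and 0.59 after median-of-ratios scaling (adjusted p = 0.00551).

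A plain TPM ratio of 2 members within a library does not depend on how libraries are scaled. The permutation tests below used TPM + 1, so their ratios depend on it in part. Eed to Suz12, subunits of the same core, was at 0.656, 0.670 and 0.640 in wildtype and 0.877, 0.760 and 0.756 in KO in full medium, and at 1.95, 1.65 and 2.73 in labelled wildtype and 0.828, 0.836 and 0.793 in labelled KO in EBSS. The labelled wildtype, EBSS libraries were above all others, at a mean of 2.11 ± 0.560 against 0.655 ± 0.0151 in wildtype, full medium. Kdm6a to Kdm6b went from 0.875 ± 0.0434 in wildtype to 0.681 ± 0.0698 in KO in full medium, and was at 0.328 ± 0.0240 in labelled wildtype and 0.667 ± 0.0738 in labelled KO in EBSS. Labelled wildtype, EBSS was again outside the other 3 groups, and KO was below wildtype without overlap.

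Ezh2 to Ezh1 was at 9.67 ± 0.348 in wildtype, 12.6 ± 0.889 in KO, 6.03 ± 0.639 in labelled wildtype, EBSS and 8.78 ± 2.17 in labelled KO, EBSS, and the KO libraries (11.6 to 13.4) exceeded all others. Rnf2 to Ring1, at 2.21 and 2.20 in the full medium groups, was at 1.70 ± 0.462 and 1.61 ± 0.160 in labelled wildtype and labelled KO in EBSS. Ezh2 to Suz12 was at 1.01 ± 0.0448 in wildtype and 1.29 ± 0.122 in KO, and at 1.70 ± 0.387 and 1.195 ± 0.179 in the EBSS groups in the same order. Bmi1 to Rnf2 was lowest in labelled KO, EBSS, at 1.07 ± 0.00713, against 1.32 ± 0.0424 in wildtype. With 3 libraries against 3, an exact two-sided permutation test of the log2 ratio of TPM + 1 cannot go below p = 0.1, which over the 36 comparisons made (6 ratios in 6 pairs of groups) adjusts to 0.15. In labelled wildtype, EBSS against wildtype, full medium all 6 ratios reached that smallest value (the plain ratio of Rnf2 to Ring1 overlapped by 1 library, at 2.02 against 2.01), and in KO against wildtype in full medium 4 did, Ezh2 to Ezh1, Kdm6a to Kdm6b, Eed to Suz12 and Ezh2 to Suz12. Of single tested genes, 84.1% and 80.2% did not overlap in these comparisons. Ratios of other gene pairs were not tested, so these counts are no result about the members.

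**Figure D3:**
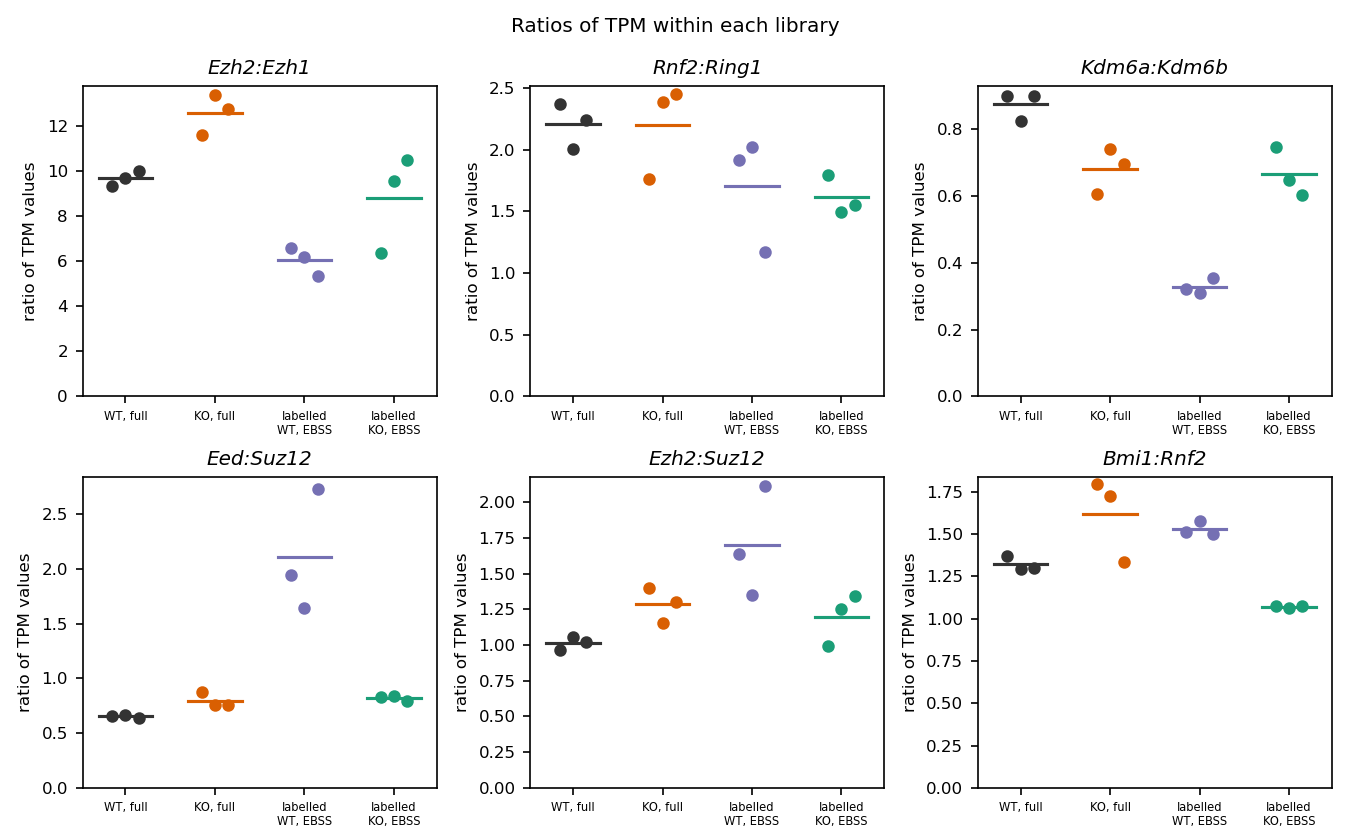
Ratios of the TPM of 2 members within each library (vertical axis, no unit, from 0), by group. Points are libraries and lines are means of 3 libraries. Labelled wildtype, EBSS is highest for Eed to Suz12 (1.65 to 2.73) and lowest for Kdm6a to Kdm6b (0.309 to 0.355), without overlap with any other group.

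Other genes of the Polycomb pathway were set beside the members. Of 63 further genes in 6 lists, 61 were tested. In full medium 10 rose and 24 fell in KO cells as deposited, 34 of 61 where 55.9% of all tested genes were called. With median-of-ratios scaling 14 rose and 16 fell, where 53.7% of all tested genes were called. As deposited the median of the 61 was -0.21, against -0.17 for all genes. By list, 2 rose and 4 fell of 8 other PRC2 subunits, 3 and 4 of 11 other canonical PRC1 subunits, 5 and 9 of 22 variant PRC1 subunits, 0 and 3 of 10 genes of H2A deubiquitinases and their partners, 0 and 1 of 5 partners of KDM6A in the KMT2C and KMT2D complexes, and 0 and 3 of 5 methyltransferases of H3 lysine 36, a mark that opposes PRC2.

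The largest rise among them was Cbx7, a reader of H3K27 methylation, from 4.64 ± 0.152 TPM in wildtype to 11.1 ± 0.418 TPM in KO (log2 change 1.10, limma adjusted p = 0.000710). Csnk2b, Pcgf1 and Pcgf5, all of variant PRC1, rose by 0.72, 0.56 and 0.52. The largest fall was in Bcorl1, a corepressor of variant PRC1, from 11.6 ± 0.378 to 2.16 ± 0.394 TPM (log2 change -1.997, adjusted p = 7.45e-06). The H3 lysine 36 methyltransferase Nsd1 fell by 1.16, Mga, a DNA-binding subunit of variant PRC1, by 1.11, and the canonical PRC1 subunit Phc3 by 0.93. These 8 had the same direction and passed with median-of-ratios scaling.

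In labelled wildtype, EBSS against wildtype, full medium, 11 of the 61 were higher and 41 lower as deposited, and 26 and 16 with median-of-ratios scaling. Of all tested genes 81.1% were called there as deposited (9.25% higher and 71.8% lower) and 66.1% with median-of-ratios scaling. The 8 largest changes that met the rule for named genes had the same direction on both scales. Phf1, a PRC2 accessory subunit that reads H3 lysine 36 methylation, rose from 20.8 ± 0.887 to 56.6 ± 2.61 TPM (log2 change 1.40, limma adjusted p = 3.98e-07). Pcgf2, the closest paralog of Bmi1, rose from 29.9 ± 1.24 to 78.2 ± 7.82 TPM (1.35). Mbd6 of the deubiquitinase complex and Fbrs of variant PRC1 rose by 1.04 and 0.92. Cbx2, a canonical PRC1 subunit, fell from 13.9 ± 0.424 to 1.74 ± 0.891 TPM (-2.50), and Pcgf3, Kdm2b, which brings variant PRC1 to CpG islands, and Pagr1a, a partner of KDM6A, fell by 2.26, 2.15 and 1.97.

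In labelled KO, EBSS against KO, full medium, 25 of the 61 were higher and 7 lower (19 and 12 with median-of-ratios scaling). Of all tested genes 54.2% were called there as deposited and 52.2% with median-of-ratios scaling. Bcorl1, Nsd1 and Mga rose by 2.07, 1.17 and 1.01, and Cbx7, Pcgf5, L3mbtl2 and Csnk2b fell by 0.95, 0.74, 0.51 and 0.50, on both scales. In labelled KO, EBSS against wildtype, full medium 0 of the 61 passed as deposited, where 0.134% of all genes did. With median-of-ratios scaling 1 passed, where 0.111% of all genes did.

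**Figure D4:**
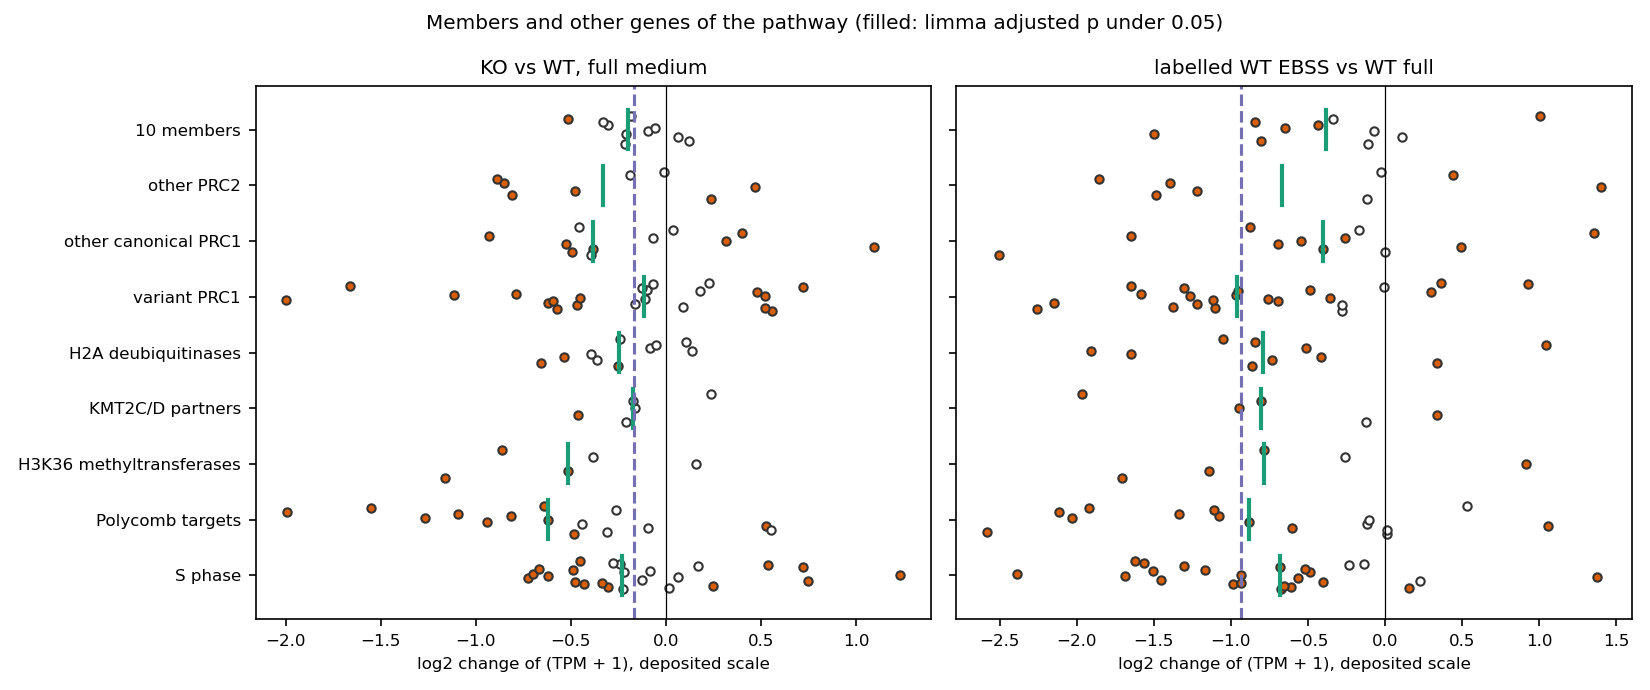
Log2 change of TPM + 1 on the deposited scale (horizontal axis) for the members and the tested genes of 8 related lists, in full medium (KO against wildtype) and in labelled wildtype EBSS against wildtype full medium. Each point is a gene, filled where the limma adjusted p is under 0.05, thick bars are list medians and the dashed line is the median of all tested genes. In full medium 1 of the 10 members is filled, against 34 of the 61 genes in the 6 Polycomb lists.

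Genes that Polycomb is known to silence were measured beside the complex. Of 32 listed targets 15 passed the filter on low values, which a target can pass through a single group, so the others are not described and the counts are no measure of targets as a whole. In KO against wildtype in full medium 1 of the 15 was higher and 9 lower as deposited, where 20.1% of all tested genes were higher and 35.8% lower. With median-of-ratios scaling 1 was higher and 7 lower, where 53.7% of all tested genes were called. The limb factor Tbx5 fell from 12.9 ± 1.25 to 4.78 ± 0.669 TPM and Sox9, a cartilage factor, from 13.0 ± 0.794 to 6.29 ± 0.582 TPM. Cdkn2a was at 593, 636 and 644 TPM in wildtype and 480, 407 and 452 TPM in KO in full medium, at 640, 728 and 536 TPM in labelled wildtype and 650, 701 and 728 TPM in labelled KO in EBSS. Its log2 change in full medium was -0.49 (limma adjusted p = 0.0026), and in labelled wildtype, EBSS against wildtype, full medium 0.01 (adjusted p = 0.912). After median-of-ratios scaling these were -0.30 (adjusted p = 0.0823) and 1.01 (adjusted p = 5.65e-05). The neighbouring Cdkn2b fell in the latter comparison from 127 ± 7.19 to 20.4 ± 1.90 TPM, by 2.58 as deposited (limma adjusted p = 9.07e-08) and by 1.61 after median-of-ratios scaling (adjusted p = 1.32e-05).

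Ezh2 is a gene of dividing cells, so S phase genes were set beside it. The 24 listed summed to 3666 to 3685 TPM in wildtype and 3363 to 3578 TPM in KO in full medium, 2407 to 2490 TPM in labelled wildtype and 3165 to 3406 TPM in labelled KO in EBSS. As deposited, Ezh2 too was lowest in labelled wildtype, EBSS. On the median-of-ratios scale the S phase sum was highest in that group (3897 to 4062) and lowest in labelled KO, EBSS (2508 to 2898), where the mean of Ezh2 was lowest as well, at 48.1 against 53.9 in wildtype and 67.1 in KO in full medium and 61.4 in labelled wildtype, EBSS. The part of cell division in its level was not tested. With median-of-ratios scaling 7 of 24 S phase genes rose and 6 fell in KO against wildtype in full medium, where 53.7% of all tested genes were called. As deposited 5 rose and 10 fell there, 15 of 24 where 55.9% of all tested genes were called. Rrm2, a subunit of ribonucleotide reductase, rose by 1.23, Ccne1 (cyclin E1) by 0.75 and the replication factor Gins2 by 0.72, while Cdc6, Tyms and Gins1 fell by 0.73, 0.70 and 0.67. In labelled wildtype, EBSS against wildtype, full medium 2 rose and 19 fell as deposited, where 81.1% of all tested genes were called. With median-of-ratios scaling 12 rose and 7 fell in labelled wildtype, EBSS against wildtype, full medium, where 66.1% of all were called. Cdt1, a licensing factor for replication origins, rose by 1.38 there, while Tyms, Rrm1 and Top2a fell by 2.39, 1.69 and 1.62, each in the same direction on both scales.

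Across the 12 libraries the pattern of Suz12 was most like those of Ltn1 (Pearson r = 0.994 of log2 values), Vps37a (0.993) and Kpna1 (0.991), among 9559 tested genes with a mean of at least 5 TPM. Ezh2 was close to Myo1c (0.996) and Pigk (0.985), and Kdm6b most like Zbtb48 (0.977), Dvl2 (0.976) and Zfp358. On the median-of-ratios scale r was 0.963 for Suz12 with Ltn1 and 0.994 for Kdm6b with Dvl2, but 0.741 for Ezh2 with Myo1c, 0.359 for Ezh2 with Pigk, 0.585 for Suz12 with Kpna1 and 0.351 for Bmi1 with Sptssa, the gene closest to it as deposited. As deposited, the closest genes of the other 7 members were Irak1bp1 for Ezh1 (0.950), Galc for Eed (0.880), Tst for Jarid2 (0.886), Sptssa for Bmi1 (0.929), Praf2 for Ring1 (0.960), Fam168b for Rnf2 (0.990) and Nktr for Kdm6a (0.966). The 12 points fall in 4 groups and share their scaling, so these values describe likeness only. Between members, Ezh2 and Suz12 had r = 0.900 as deposited and 0.113 after median-of-ratios scaling.

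The difference of differences, the genotype contrast in EBSS less that in full medium, was called higher for 5 members and lower for 1, 6 of 10 against 76.7% of tested genes (64.2% higher and 12.5% lower). With median-of-ratios scaling 0 were higher and 6 lower, against 66.8% called, and over all genes the share of calls that were higher went from 83.7% to 51%. It uses the EBSS labels, against which Rbbp5 went in labelled KO on both scales and in labelled wildtype as deposited.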

How the data were processed

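The authors deposited a table of TPM per gene symbol for 12 poly(A) RNA libraries, prepared with an Illumina TruSeq kit per the labels' protocols. The submitters' processing notes name Salmon and mm10; the sources used here give neither settings nor annotation. TPM keeps no read depth, so the precision of single values is unknown. Groups come from the labels. Titles number the 3 libraries of a group as brep, which the labels do not spell out, and nothing there names separate cultures or embryos, so p-values measure the spread between these libraries, which may be technical in part.

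Values were tested as log2(TPM + 1), which understates changes of low genes, with limma 3.58.1 in R 4.3.3 (a mean per group over all 12 libraries, variance trend, two-sided), for the 12653 genes with at least 1 TPM in at least 3 libraries. P-values were adjusted by the Benjamini-Hochberg method over all of them, at a threshold of 0.05. Ratios of members were tested by exact permutation (scipy 1.17.1). The code was tested on simulated data. Alternatives were pseudocounts of 0.1 and 0.5, other filters, median-of-ratios and quantile scaling, ribosomal protein genes left out, 6 libraries alone, no variance trend, a replicate block and each library left out. Leaving out labelled wildtype, EBSS replicate 3 and labelled KO, EBSS replicate 1 together was chosen after seeing the data. Other pathway genes are named where they had the 4 largest rises or falls in a comparison (3 for targets and S phase genes) among called genes with a mean of at least 5 TPM in the higher group and no overlap. Some genes that met these rules are not reported here. Cdkn2a was named for its known role. The members and lists were chosen with earlier results of these data known. Gene positions are from GENCODE vM21.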

Additional observations from a re-analysis of the deposited data

Results flagged for a closer look

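For 6 members the genotype contrast differed between EBSS and full medium by a test of the difference itself (limma, Benjamini-Hochberg adjusted p). The values are the log2 change of labelled KO against labelled wildtype in EBSS less that of KO against wildtype in full medium. As deposited they were 1.28 for Suz12 (SE 0.17, adjusted p = 2.76e-05), 1.11 for Rnf2 (SE 0.19, adjusted p = 0.000274) and 1.10 for Ring1 (SE 0.25, adjusted p = 0.00185). Kdm6a followed at 0.80 (SE 0.26, adjusted p = 0.0151) and Ezh2 at 0.47 (SE 0.15, adjusted p = 0.0118), while Kdm6b was at -0.505 (SE 0.18, adjusted p = 0.0209). The median of all tested genes was 1.06, so of the 5 positive values 3 lay above it. With median-of-ratios scaling the values were 0.16 for Suz12 (adjusted p = 0.338), -0.0038 for Rnf2, 0.02 for Ring1, -0.27 for Kdm6a, -0.66 for Ezh2 (adjusted p = 0.00231) and -1.61 for Kdm6b (adjusted p = 1.93e-06). Ezh2 passed in opposite directions, and Kdm6b passed in the same direction on both scales. As deposited, the Kdm6b value did not pass without KO, full medium replicate 3 (adjusted p = 0.0508) or labelled KO, EBSS replicate 2 (0.0548) or 3 (0.0555). Rbbp5 itself was at -1.53 in full medium and 0.99 in EBSS as labelled, and at -1.34 and 0.08 (adjusted p = 0.558) after median-of-ratios scaling. The EBSS term of each value thus uses labels that Rbbp5 does not follow, in both groups as deposited and in labelled KO alone after scaling. Its part in these values was not tested.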

How the results depend on the processing

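Suz12 (lower) and Kdm6b (higher) in labelled wildtype, EBSS against wildtype, full medium, and Ring1 and Kdm6b (higher) in labelled KO, EBSS against KO, full medium, kept direction and call in all 23 alternatives. So did Suz12 (lower) and Kdm6b (higher) in labelled wildtype, EBSS against KO, full medium, and Kdm6b (lower in labelled KO) between the EBSS groups. Labelled KO, EBSS and KO, full medium also differed in Rbbp5, by 1.54 as deposited. Against wildtype, full medium neither Ring1 nor Kdm6b passed in labelled KO, EBSS (0.36 and 0.32). Scaling moved most other values, and the cause was not tested. Counts of members higher, then lower, with median-of-ratios scaling and quantile normalization were as follows. Parentheses hold the counts of all 12653 tested genes called higher, then lower, with quantile normalization. KO against wildtype in full medium had 1 higher with the first and 0 lower with each (3643 and 3270). Labelled KO against labelled wildtype in EBSS had 0 higher with each and 7 and 6 lower (4003 and 3780). Labelled wildtype, EBSS against wildtype, full medium had 7 and 6 higher and 1 lower with each (3897 and 4203). Against KO, full medium the member counts were the same (3665 and 4290). Labelled KO, EBSS against KO, full medium had 4 lower with each (3195 and 3685). The difference of differences had 0 and 1 higher, 6 and 7 lower (4068 and 4346). With ribosomal protein genes left out, lower members were 2 between the EBSS groups, where 7607 of 12575 genes were higher and 1628 lower. In labelled KO, EBSS against KO, full medium 2 were lower (all genes, 3894 higher and 2746 lower). Labelled wildtype, EBSS against KO, full medium had 3 higher and 2 lower (all genes, 2026 and 6749). Against wildtype, full medium these libraries had 2 higher (all genes, 1709 and 7696). The difference of differences had 3 higher and 2 lower (all genes, 6867 and 2146).

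Directions reversed as follows (median-of-ratios, then quantile, where both are given). After the full medium comparison, members called as deposited come first, and the others, with median-of-ratios only, close the paragraph. In KO against wildtype in full medium these were Jarid2 (0.046, 0.40), Bmi1 (0.13, 0.0537) and, with quantile normalization, Ezh1 (0.22), Ring1 (0.0051) and Kdm6b (0.12). Between the EBSS groups they were Ezh2 (-0.35, -0.21), Ring1 (-0.11, -0.20) and Rnf2 (-0.15, -0.13). In labelled wildtype, EBSS against wildtype, full medium they were Ezh2 (0.18 with median-of-ratios), Bmi1 (0.33, 0.23), Ring1 (0.50, 0.63) and Rnf2 (0.12, 0.10), and against KO, full medium Bmi1 (0.20, 0.17) and Rnf2 (0.27, 0.24). In the difference of differences they were Ezh2 (-0.66, -0.38), Kdm6a (-0.27, -0.56), Rnf2 (-0.0038 with median-of-ratios) and Ring1 (-0.20 with quantile). Members not called as deposited also reversed: Bmi1 (-0.66), Kdm6a (-0.61) and Ezh1 (-0.77) between the EBSS groups, Kdm6a (0.59), Ezh1 (0.77) and Jarid2 (0.69) in labelled wildtype, EBSS against wildtype, full medium, Ring1 (0.63) in the same libraries against KO, full medium, Jarid2 (-0.10) in labelled KO, EBSS against KO, full medium, and Bmi1 (-0.78), Ezh1 (-0.71) and Jarid2 (-0.79) in the difference of differences.

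In full medium, lower members numbered 4 with the 6 libraries alone, 0 with the replicate block, 5 without the 2 libraries that stand apart, and 0 to 3 with each library left out. Genes called in all there ran from 5406 to 9692 over the 23 alternatives, and from 5961 to 8619 with each library left out. These member counts are thus no result about the members alone. Without those 2 libraries, lower members were 8 in labelled wildtype, EBSS against wildtype, full medium and 3 in labelled KO, EBSS against KO, full medium. Over the alternatives, genes called in all ran from 8100 to 11214 and from 5249 to 9150 in these comparisons. In the main fit 71.8% and 20.9% of tested genes were called lower there. The shares called lower without those 2 libraries are not given here, so these counts too are no result about the members alone. With each library left out, lower members were 1 to 2 between the EBSS groups, 0 to 2 in labelled KO, EBSS against KO, full medium and 0 to 1 in the difference of differences. Genes called in all then ran from 9798 to 10652, 5952 to 8419 and 9256 to 10411, in the same order. Labelled KO, EBSS against wildtype, full medium had 17 genes called in all, 32 with no filter, 56 with quantile normalization, 249 with 6 libraries alone (1 member lower), 11 with no variance trend, 7 with the block, 730 without the 2 libraries that stand apart (2 members lower) and 8 to 219 with each library left out, the most without labelled wildtype, EBSS replicate 3. Leaving libraries out took full medium changes from -0.0111 to 0.11 for Eed, -0.14 to 0.0050 for Jarid2 and -0.18 to 0.0074 for Bmi1. It took log2 ratio differences from -0.30 to 0.0262 (Ezh2 to Ezh1, labelled KO, EBSS against wildtype), -0.11 to 0.12 and -0.25 to 0.11 (Rnf2 to Ring1, full medium and EBSS), -0.12 to 0.0209 and -0.20 to 0.0121 (Kdm6a to Kdm6b and Ezh2 to Suz12, labelled KO, EBSS against KO) and -0.21 to 0.0023 (Bmi1 to Rnf2, labelled wildtype, EBSS against KO).

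The replicate numbers do not pair libraries: deviations of same-numbered libraries correlated at -0.073 to 0.079 over 18 pairs, and 3 of 12 libraries correlated best with one of their own number. With the replicate block, adjusted p became 0.0557 for Kdm6a in KO against wildtype in full medium and 0.0534 for Ring1 in labelled wildtype, EBSS against wildtype, full medium, and no other member's call changed. Depth is unknown, so low members such as Jarid2 carry a counting error that these values do not show.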
